A study of Mus musculus with 2 samples.

Results

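Macrophages in which mitochondrial transcripts made up over 10% and at most 25% of all unique molecular identifiers (UMIs, each a captured RNA molecule) were 525 barcodes of the TAC library and 4018 of the sham library, 4543 of 19916 barcodes in all. They were chosen by a rule on measured values, applied to each barcode: at least 300 detected genes, at least 40 UMIs of C1qa, C1qb and C1qc per 10000, under 50 per 10000 of S100a8 and S100a9, under 20 per 10000 of the cardiomyocyte genes Myh6, Tnnt2, Actc1 and Myl2, and under 3 raw UMIs each of the CD3 genes Cd3d, Cd3e and Cd3g together and of Hmga2. They are called high-mitochondrial macrophages here. Barcodes that met the same rule with at most 10% mitochondrial UMIs, 2938 in TAC and 3234 in sham, are called low-mitochondrial macrophages. The mitochondrial share and the C1q level are therefore part of the selection, and their values are given as a description.

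The hearts came from wild-type C57BL/6 mice aged 10 weeks. In the TAC animals transverse aortic constriction, a band that narrows the aortic arch, raises the pressure against which the left ventricle works, and the sham animals had no such band. Cells carrying CD45, the pan-leukocyte surface protein, were sorted from digested hearts and profiled in droplets with the 10x Genomics system. Each condition is 1 library, which the design text describes as 6 mice per group and whose barcodes carry no mark of the animal. No label used here states the time from operation to collection. Library and condition therefore cannot be told apart, no test between groups is possible, and all intervals are 95% intervals that cover counting error only.

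Macrophages of the heart include long-lived resident cells, which take up debris and carry receptors such as LYVE1, FOLR2 and TIMD4, and cells that come from blood monocytes after injury. Complement C1q, made in the heart mostly by macrophages, marks both. The mitochondrial genome encodes 13 proteins of the respiratory chain and of ATP synthase, and its transcripts stay inside the organelle. Their share of a barcode's UMIs is larger where there are more of them or where there are fewer transcripts of nuclear genes, so both amounts were counted.

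The mitochondrial band of over 10 to 25% held 1067 TAC and 4966 sham barcodes with at least 300 genes, and high-mitochondrial macrophages were 49.2% and 80.9% of these. In that band 461 TAC and 823 sham barcodes missed the C1q limit and 223 and 167 exceeded the S100a8 and S100a9 limit, and a barcode may miss several limits. Among all barcodes that met the rule up to 25%, high-mitochondrial macrophages were 15.2% of 3463 in TAC (Clopper-Pearson interval 14 to 16.4) and 55.4% of 7252 in sham (54.3 to 56.6). A further 191 TAC and 409 sham barcodes met the other limits with over 25%. The libraries shared 35 barcode sequences, and 1 TAC and 9 sham high-mitochondrial macrophages were among them.

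The limits cut through continuous distributions. Just outside the lower mitochondrial limit, at 9 to 10%, lay 101 TAC and 887 sham macrophages, and just inside, at 10 to 11%, lay 53 and 789. Just inside the upper limit, at 24 to 25%, were 19 TAC and 51 sham cells, and just outside, at 25 to 26%, 12 and 39. Few cells lay near the C1q limit: 17 TAC and 20 sham cells with 40 to 44 C1q UMIs per 10000 were inside, and 15 and 18 with 36 to 40 were outside.

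High-mitochondrial macrophages carried about as many mitochondrial UMIs per cell as low-mitochondrial ones and fewer UMIs of nuclear genes. The mean was 793 mitochondrial UMIs per cell in high-mitochondrial and 745 in low-mitochondrial TAC macrophages, and 887 and 821 in sham. Non-mitochondrial UMIs per cell were 4613 in high-mitochondrial against 15519 in low-mitochondrial TAC macrophages, and 5734 against 9722 in sham. The gap between the bands was thus mostly a gap in nuclear transcripts, and it was wider in TAC. Across the bands at most 5%, 5 to 10%, 10 to 15%, 15 to 20% and 20 to 25%, the mean number of non-mitochondrial UMIs per TAC cell went 17980.1, 12004, 6079.7, 3829 and 2332. Sham cells had 12143, 9668, 6310.2, 4683 and 3380.0.

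**Figure D1:**
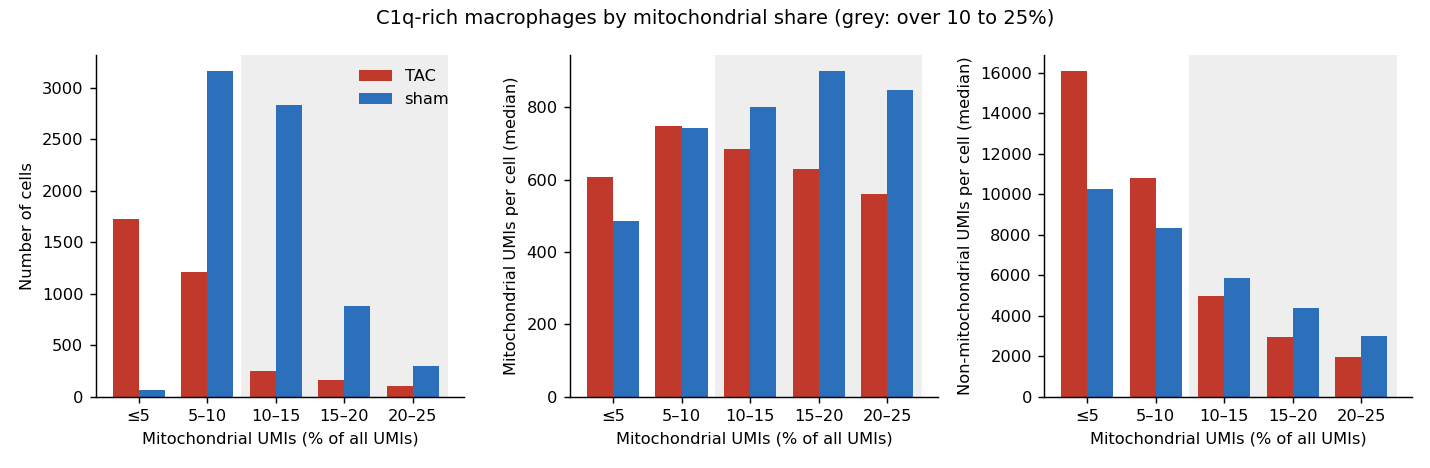
Number of C1q-rich macrophages, median mitochondrial UMIs per cell and median non-mitochondrial UMIs per cell (vertical axes) in 5 bands of mitochondrial share (horizontal axis, % of all UMIs), with TAC in red left of sham in blue. Over the 3 grey bands the median of non-mitochondrial UMIs goes down in both libraries, while the median of mitochondrial UMIs stays between 560 and 900.

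The median depth of high-mitochondrial macrophages was 4094 UMIs and 1307 genes per cell in TAC, and 6214 UMIs and 1782 genes in sham. Low-mitochondrial macrophages had 14508 and 9103 UMIs. The libraries as a whole held 97983083 UMIs in TAC and 87532984 in sham. With each cell thinned to 1000 non-mitochondrial UMIs, high-mitochondrial macrophages had a median of 554 genes in TAC and 549 in sham, and low-mitochondrial ones 566 and 569. At equal depth the 4 groups therefore had similar numbers of genes per cell.

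Macrophage markers that the rule did not use were present in these cells. All 11 such genes of a marker list were detected in each of the 4 groups, and levels are given as CPM, a gene's summed UMIs per 1000000 non-mitochondrial UMIs of the same cells. Cd68, a lysosomal membrane protein of macrophages, was at 438 CPM in TAC and 396 in sham, and Adgre1, which encodes F4/80, at 327 and 405 CPM. Csf1r, the receptor for the macrophage growth factor CSF1, was at 503 CPM in TAC and 878 in sham. Apoe, a lipid carrier that macrophages secrete, was at 13211 and 26165 CPM.

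Transcripts of other cell types were present and differed between the libraries. Neutrophil markers summed to 762 CPM in TAC and 112 in sham high-mitochondrial macrophages, with 17 and 14 of 18 genes detected, and to 514 and 142 CPM in low-mitochondrial ones. S100a8 and S100a9, which the rule limits, were at 248 and 344 CPM in TAC and 16.9 and 22.6 CPM in sham high-mitochondrial macrophages. The neutrophil gene Ly6g had 2 UMIs in TAC and 0 in sham high-mitochondrial macrophages. Ly6g was rare in low-mitochondrial ones too, with 23 and 4 UMIs, so its low count does not measure neutrophil RNA. Only 8 neutrophil markers had the 50 UMIs needed for a TAC/sham ratio in high-mitochondrial macrophages. Past 1.5-fold, 6 of these favoured TAC and 1 favoured sham, and their median log2 ratio was 3.02. Of the lymphoid lists, NK cell markers summed to 117 CPM in TAC and 12.3 CPM in sham high-mitochondrial macrophages, T cell markers to 42.1 and 12.7 CPM and B cell markers to 269 and 403 CPM. The lists of stromal cells summed to 285 and 195 CPM for fibroblasts, 194 and 235 CPM for endothelial and 13.6 and 35.9 CPM for mural cells. Dendritic cell markers were at 72.3 and 31.0 CPM, non-classical monocyte markers at 272 and 245 CPM and mast cell markers at 12 and 2.08 CPM. The platelet list, at 1041 CPM in TAC and 4295 CPM in sham, contains Pf4, which resident macrophages express too and which is on their list here. Cardiomyocyte markers, 14 of 14 detected, summed to 288 and 270.0 CPM in high-mitochondrial TAC and sham macrophages, against 102 and 156 CPM in low-mitochondrial ones. Among them Nppa, the atrial natriuretic peptide, had 19.8 CPM in TAC and 0.694 CPM in sham high-mitochondrial macrophages. Summed erythroid markers ran the other way, at 215 and 321 CPM in high-mitochondrial against 1389 and 2464 CPM in low-mitochondrial TAC and sham macrophages. Their median per cell did not: per 10000 it was 1.75 in high-mitochondrial and 0.813 in low-mitochondrial TAC cells, and 0 in both sham groups. The part of such transcripts in the results was not tested. Where they bear on a result, list medians are given without the barcodes that held at least 3 UMIs of fibroblast, endothelial, B cell or NK cell genes. Only these are meant below by barcodes that held UMIs of other cell types. Barcodes were not left out for neutrophil, monocyte, dendritic cell or cardiomyocyte transcripts. At least 3 UMIs of the neutrophil list were held by 52.8% of TAC and 4.18% of sham high-mitochondrial macrophages.

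Within the mitochondrial transcripts the makeup differed between the libraries more than between the bands. Shares are percentages of all mitochondrial UMIs, so the rule, which used their sum, does not set them. The complex I subunit mt-Nd4 made up 9.10% of mitochondrial UMIs in TAC high-mitochondrial macrophages (9.02 to 9.19) and 6.81% in sham (6.78 to 6.83). In low-mitochondrial macrophages it was 8.80% in TAC and 6.93% in sham. Another complex I subunit, mt-Nd1, was 5.62% in TAC and 4.44% in sham, and mt-Co1, a core subunit of cytochrome oxidase, 15.9% and 13.6%. The TAC shares of these genes were above the sham shares. Those of the ATP synthase subunit mt-Atp6 (16.1% in TAC and 18.1% in sham), of mt-Co3 (17.4% and 19.4%) and of mt-Nd3 (1.45% and 1.99%) were below. High-mitochondrial against low-mitochondrial cells, the ratio of shares over the 13 genes lay between 0.899 and 1.06 in TAC and between 0.924 and 1.06 in sham.

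The TAC and sham libraries were then compared within high-mitochondrial macrophages, scaled to non-mitochondrial UMIs. Most interferon-inducible, inflammatory, cell cycle, glycolytic and antigen presentation genes were higher in the TAC cells, and most resident macrophage, immediate-early and heme and iron genes lower, as were several heat shock genes. A gene is called higher or lower at a ratio of at least 1.5-fold among genes with at least 50 UMIs over the groups compared, and log2 ratios have 0.5 UMI added to each sum. Of 10567 genes so compared, 1715 were higher in TAC (16.2%) and 1789 lower (16.9%), and the median log2 ratio of all genes was 0.00. In low-mitochondrial macrophages 1357 of 12173 genes were higher in TAC (11.1%) and 2825 lower (23.2%), with a median of −0.14. Both comparisons rest on the same 2 libraries, so their values are set side by side and not as separate evidence.

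The largest ratios belonged to genes induced by interferon. Of 47 interferon-inducible genes 45 were compared, 45 were higher and 0 lower in TAC and the median log2 ratio was 2.92, and in low-mitochondrial macrophages 46 of 47 were higher and 0 lower with a median of 2.72. Without barcodes that held UMIs of fibroblast, endothelial, B cell or NK cell genes the median was 2.91. Barcodes with neutrophil transcripts were not left out. Guanylate-binding proteins, interferon-induced GTPases that act on membranes of intracellular pathogens, led the list. Gbp2b (chr3:142594847-142619179, plus strand, mm10) was at 256 CPM (236 to 277) in TAC and 1.43 CPM (0.986 to 2.01) in sham high-mitochondrial macrophages, from 620 and 33 UMIs, a ratio of 179-fold (126 to 262). In low-mitochondrial macrophages it was at 262 CPM in TAC and 2.99 CPM in sham. The 250 bases before its start in the RefSeq promoter table (GRCm38.p6, chr3:142594597-142594846, plus strand) are shown because the gene has the highest ratio of those named for a level of at least 50 CPM in either library, with a match to the core of the interferon-stimulated response element, a pair of TTTC runs 2 bases apart, in capitals 137 bases before the start.
Gbp2b: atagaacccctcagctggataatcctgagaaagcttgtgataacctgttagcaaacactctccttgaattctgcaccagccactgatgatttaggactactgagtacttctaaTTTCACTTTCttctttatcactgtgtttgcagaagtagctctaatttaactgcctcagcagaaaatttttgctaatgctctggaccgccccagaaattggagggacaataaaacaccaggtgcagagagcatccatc
That motif, searched on both strands, occurs in 2.98% of the 32851 windows of this length in the table, and a match is a description of the letters.

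Gbp4 was at 374 CPM in TAC and 2.82 CPM in sham high-mitochondrial macrophages, and at 203 and 2.74 CPM in low-mitochondrial ones. Gbp8 (141 and 1.22 CPM in TAC and sham), Gbp6 (72.7 and 2.21 CPM) and Gbp2 (584 and 21.2 CPM) had the same direction. Gbp4 and Gbp8 overlap on the minus strand of chromosome 5, and the family members are close copies of each other, so how reads were divided among them is uncertain. Il18bp, the soluble inhibitor of interleukin-18, was at 142 CPM in TAC and 4.86 CPM in sham. Cd274, the checkpoint ligand PD-L1, was at 137 CPM (122 to 152) in TAC and 5.95 CPM (4.99 to 7.03) in sham, and Acod1, the enzyme that makes itaconate in activated macrophages, at 82.2 and 3.73 CPM. In each of these genes the TAC and sham intervals lay far apart.

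Ly6a, the interferon-inducible surface protein also called SCA-1, was at 1111 CPM in TAC and 24.8 CPM in sham high-mitochondrial macrophages, 44.7-fold (40.9 to 49.1) higher. Ly6c2, a surface protein of inflammatory monocytes and a homologue of Ly6a, was at 52.9 and 0.781 CPM, the sham value from 18 UMIs. Further genes of large ratio were Fam26f, at 201 CPM in TAC and 5.69 in sham, and AA467197, at 73.9 and 2.21 CPM. The smallest ratios on the interferon list were those of Parp14, a mono-ADP-ribosyltransferase, at 2.12-fold (254 against 119.7 CPM), and of Ifit1, a sensor of foreign RNA, at 2.43-fold (81.3 against 33.5 CPM). The list was spread through the cells: its summed level per 10000 non-mitochondrial UMIs had a median of 124 (quartiles 72.8 and 183) over TAC and 18.2 (quartiles 12.2 and 27.3) over sham high-mitochondrial macrophages. Low-mitochondrial macrophages had medians of 123 and 18.9.

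**Figure D2:**
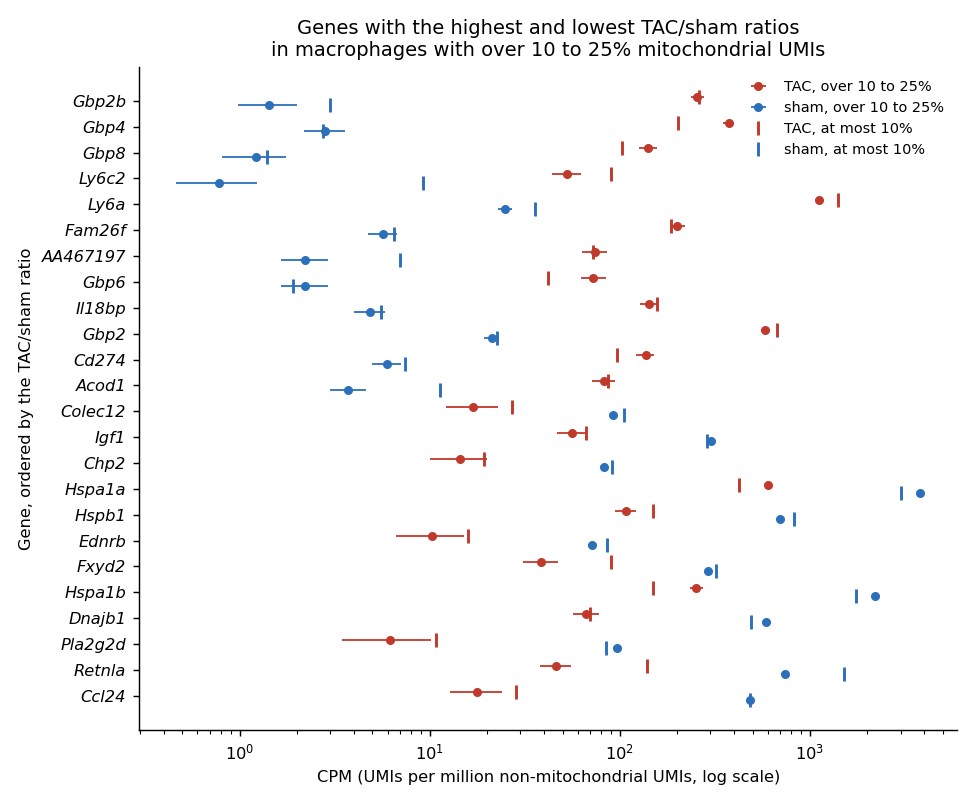
Level in CPM (horizontal log axis, UMIs per 1000000 non-mitochondrial UMIs) of the 12 highest and 12 lowest genes by TAC/sham ratio in high-mitochondrial macrophages (vertical axis). Points with lines are high-mitochondrial macrophages with their 95% Poisson intervals, and upright ticks are low-mitochondrial ones, TAC in red and sham in blue. In all 24 genes the tick of each library lies on the same side of the other library's tick as the points do.

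MHC class II genes, which present peptides to CD4 T cells, were higher in 10 of 14 and lower in 0, at a median log2 ratio of 0.75 in high-mitochondrial and 0.79 in low-mitochondrial macrophages. H2-Ab1 was at 7097 CPM in TAC and 4095 CPM in sham, and Ciita, the transcriptional activator of the class, at 119 and 64.4 CPM. Ctss, the protease that trims the invariant chain, was 3.12-fold (3.04 to 3.20) higher at 3307 against 1059 CPM. The costimulatory receptor Cd40 was at 78.0 and 24.4 CPM. The summed level per 10000 non-mitochondrial UMIs had a median of 355 over TAC and 204 over sham high-mitochondrial macrophages.

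Of 30 inflammatory cytokine and NF-kB genes 28 were compared, with 22 higher and 1 lower in TAC and a median log2 ratio of 1.07. Ccl5, a chemokine for T cells, was at 168 CPM in TAC and 24.7 CPM in sham, and Ptgs2, the inducible cyclooxygenase, at 112 and 19.1 CPM. Il1b was at 1159 and 527 CPM. The anti-inflammatory cytokine Il10 was higher too, at 52.9 CPM in TAC and 11.8 CPM in sham. Il6 was the gene called lower, from 4 TAC and 152 sham UMIs, and Cxcl1 was at 148 and 179 CPM, short of the 1.5-fold call.

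Genes of glycolysis and the hypoxia response were higher in 17 of 26 and lower in 0, with a median log2 ratio of 0.79, and 0.62 in low-mitochondrial macrophages. Ndrg1, a gene induced in hypoxia and the highest of the list, was at 40.9 CPM in TAC and 3.78 CPM in sham, and Vegfa, the growth factor for blood vessels, at 12.8 and 1.39 CPM. Hk2, an inducible hexokinase, was at 111 and 58.2 CPM. By contrast the enolase Eno1 was at 147 and 135 CPM, a ratio of 1.09-fold (0.972 to 1.21). Of 62 nuclear genes for the respiratory chain and ATP synthase, 0 were higher and 1 lower, with a median of 0.15. The gene called lower was Uqcrh, a complex III subunit, at 327 CPM in TAC and 523 CPM in sham.

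Resident macrophage genes were lower in TAC. Of 29 resident genes in the files 27 were compared, 0 were higher and 24 lower, and the median log2 ratio was −1.51, against −1.38 in low-mitochondrial macrophages with 27 of 29 lower and 0 higher. Ccl24, an eosinophil chemokine, was at 17.8 CPM (12.8 to 23.9) in TAC and 484 CPM (475 to 493) in sham, 27.3-fold (20.2 to 37.7) lower. Retnla, which encodes the secreted protein RELM-alpha, was at 46.2 and 740.1 CPM, and Pla2g2d, a secreted phospholipase, at 6.19 and 96.2 CPM from 15 and 2216 UMIs. The TAC and sham intervals of these genes did not overlap. Cd209f had 1 UMI in TAC and 1045 in sham high-mitochondrial macrophages, a TAC/sham ratio with an interval of 0.000230 to 0.0508.

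Igf1, which encodes insulin-like growth factor, was at 55.7 CPM in TAC and 303 CPM in sham, 5.44-fold (4.58 to 6.49) lower. Cd163, the haptoglobin-haemoglobin receptor, was at 217 and 413 CPM, and Stab1, a scavenger receptor, at 332 and 587 CPM. Timd4, the phosphatidylserine receptor of self-renewing resident macrophages, did not share the direction of the list: it was at 125 CPM in TAC and 111 CPM in sham, a ratio of 1.13-fold (0.996 to 1.27). Cd36, a receptor for oxidised lipids, was at 218 and 229 CPM.

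The share of cells in which a gene was seen was taken with each cell thinned to 1000 non-mitochondrial UMIs, which left 466 TAC and 3987 sham high-mitochondrial macrophages and left out 59 and 31. Lyve1, which encodes a receptor for hyaluronan, was seen in 18.2% (14.8 to 22.1) of TAC and 33.8% (32.3 to 35.3) of sham cells, and Folr2, a folate receptor, in 23.4% (19.6 to 27.5) and 47.8% (46.3 to 49.4). Without thinning, Lyve1 was seen in 27.8% and 59.3% and Folr2 in 43.6% and 76.1%. Free RNA can give a UMI to a cell that does not express the gene, so the share was also taken in fibroblast-gated barcodes of the same band, 7 in TAC and 88 in sham. There Lyve1 was seen in 0% and 1.14% and Folr2 in 0% and 1.14%, and with 7 barcodes the TAC background is poorly known. In T-gated barcodes, 14 in TAC and 42 in sham, Lyve1 was seen in 0% and 4.76% and Folr2 in 7.14% and 4.76%. The median depth of non-mitochondrial UMIs before thinning was 2571 and 5343 in these barcodes and 3443 and 5380.5 in the macrophages. Lyve1 was seen in 23.8% of TAC and 47.5% of sham low-mitochondrial macrophages at the same thinned depth, and Folr2 in 32.2% and 57.9%.

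In the same thinned cells, genes of the interferon response were seen too. Cxcl9, an interferon-induced chemokine for T cells, was seen in 10.5% (7.88 to 13.7) of TAC and 0.577% (0.366 to 0.864) of sham high-mitochondrial macrophages, and Cd274 in 11.8% (9.02 to 15.1) and 0.477% (0.287 to 0.743). In sham fibroblast-gated barcodes both genes were seen in 0%, and in TAC Cxcl9 was seen in 0% and Cd274 in 14.3%, which is 1 of 7 barcodes, so that the TAC share of Cd274 is not read apart from background. In the T-gated barcodes Cxcl9 was seen in 7.14% (0.181 to 33.9) and 0% and Cd274 in 0% and 2.38%, so the TAC share of Cxcl9 is not apart from this background either and the sham share of Cd274 lies under it. Timd4 was seen in 11.6% (8.83 to 14.8) of TAC and 9.23% (8.35 to 10.2) of sham cells, with overlapping intervals.

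Several heat shock genes were lower in TAC, the inducible HSP70 and HSP40 genes among them. Of 26 genes 25 were compared, 1 was higher and 9 lower, and the list's median log2 ratio was −0.42. Hspa1a and Hspa1b, the inducible HSP70 genes, are near-identical neighbours between which reads can be divided wrongly. Hspa1a was at 603 CPM in TAC and 3784 CPM in sham high-mitochondrial macrophages, and Hspa1b (chr17:34956436-34959238, minus strand, mm10) at 253 and 2189.9 CPM, 8.67-fold lower. Dnajb1, an HSP40 cochaperone on chromosome 8, was at 66.5 and 589 CPM. The 250 bases before the start of Hspa1b (RefSeq promoter table, GRCm38.p6, chr17:34959239-34959488, minus strand) are shown because this gene and Dnajb1 have the lowest ratios on the list, with a match to GAANNTTC, an inverted pair of the unit of heat shock elements, in capitals 104 bases before the start.
Hspa1b: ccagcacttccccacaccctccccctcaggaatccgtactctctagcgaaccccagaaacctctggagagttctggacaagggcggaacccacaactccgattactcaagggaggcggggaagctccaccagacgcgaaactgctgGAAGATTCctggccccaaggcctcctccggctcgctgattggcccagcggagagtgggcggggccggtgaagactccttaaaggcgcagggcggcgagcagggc
The motif reads the same on both strands and occurs in 6.69% of the windows, and the window of Dnajb1 held no match. Hspb1, a small heat shock protein, was at 107 CPM in TAC and 698 CPM in sham. Hsp90b1, a chaperone of the endoplasmic reticulum, was the gene called higher, at 1227 and 797 CPM, and the transcription factor Hsf1 was at 13.6 and 13.6 CPM.

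Immediate-early genes, which cells switch on within minutes of a stimulus and also during tissue digestion, were lower in 17 of 26 and higher in 2, with a median log2 ratio of −0.71 in high-mitochondrial and −0.86 in low-mitochondrial macrophages. Klf4 was at 415 CPM in TAC and 1739.7 CPM in sham, Fosb at 959 and 1845 CPM and Egr1 at 988 and 1808 CPM. Dusp2 and Dusp5, phosphatases that act on MAP kinases, were the genes called higher, Dusp2 at 80.5 and 22.8 CPM. The part of tissue handling in this difference was not tested.

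Genes of heme and iron handling were lower in 11 of 16 and higher in 0, with a median log2 ratio of −0.71, against −0.47 in low-mitochondrial macrophages. Slc40a1, the iron exporter ferroportin, was at 5.37 CPM in TAC and 38.2 CPM in sham, and Ncoa4, the receptor for the breakdown of ferritin, at 16.9 and 70.0 CPM. Tfrc, the transferrin receptor, was at 5.37 and 14.8 CPM from 13 and 341 UMIs. Spic, the transcription factor of iron-recycling macrophages, was at 25.6 and 39.5 CPM. Cp, the ferroxidase ceruloplasmin, had the other direction at 85.1 and 59.4 CPM, short of the call.

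Cell cycle genes were higher in TAC, with a larger ratio in high-mitochondrial than in low-mitochondrial macrophages, a difference that 2 libraries do not allow to be tested. Of 42 genes 40 were compared, 37 were higher in TAC and 0 lower, and the median log2 ratio was 1.64, while in low-mitochondrial macrophages 24 of 42 were higher and 0 lower, and the median was 0.67. The list summed to 2152 CPM in TAC and 849 CPM in sham high-mitochondrial macrophages, and to 2094 and 1366 CPM in low-mitochondrial ones. Mki67, the proliferation marker Ki-67, was at 177 CPM in TAC and 31.9 CPM in sham high-mitochondrial macrophages, 5.56-fold (4.92 to 6.27) higher, and at 86.5 and 70.5 CPM in low-mitochondrial ones. Top2a, the topoisomerase that untangles replicated DNA, was at 126 and 22.2 CPM in high-mitochondrial and 96.9 and 58.7 CPM in low-mitochondrial macrophages. Cenpf, a kinetochore protein, was at 54.1 and 9.11 CPM, and 38.5 and 24.8 CPM. In all 3 genes the sham high-mitochondrial group was the lowest of the 4.

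Pcna, the sliding clamp of DNA replication, was at 82.2 CPM in TAC and 71.4 CPM in sham, and the centromeric histone Cenpa at 29.3 and 37.2 CPM, neither past 1.5-fold. The cell cycle level was carried by a minority of cells: per 10000 non-mitochondrial UMIs its median was 8.06 in TAC and 4.87 in sham high-mitochondrial macrophages, while the ninth decile was 56.3 and 12.2. At 1000 non-mitochondrial UMIs Mki67 was seen in 7.30% (5.11 to 10.0) of TAC and 1.53% (1.17 to 2.0) of sham high-mitochondrial macrophages, and in 5.07% (4.31 to 5.93) and 3.59% (2.97 to 4.29) of low-mitochondrial ones. Sham fibroblast-gated barcodes of the band had it in 0% and T-gated ones in 14.3% and 4.76%. T cells can cycle themselves, and the T-gated TAC share is 2 of 14 barcodes (1.78 to 42.8), so it cannot set the level of free Mki67 RNA. With the TAC background thus poorly known, the shares in high-mitochondrial macrophages are not read as a difference and the summed levels stand alone. The list median in high-mitochondrial macrophages was 1.68 without barcodes that held UMIs of fibroblast, endothelial, B cell or NK cell genes. It was 1.21 at equal depth.

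Other genes whose TAC/sham log2 ratio differed most between high-mitochondrial and low-mitochondrial macrophages were named in each direction. Kcnn4, a calcium-activated potassium channel, was at 51.6 CPM in TAC and 5.08 CPM in sham high-mitochondrial macrophages and at 34.8 and 11 CPM in low-mitochondrial ones. Cxcl13, a chemokine for B cells, was at 88.8 and 175 CPM in high-mitochondrial and at 318 and 258 CPM in low-mitochondrial macrophages, so that its direction turned. Fabp5, a fatty acid carrier, was at 40.1 and 40.9 CPM in the first and 132 and 71.1 CPM in the second. Fxyd2, a regulatory subunit of the sodium pump, was lower in TAC in both, at 38.4 and 289.7 CPM in high-mitochondrial and 90.1 and 322 CPM in low-mitochondrial macrophages. The 4 levels of a gene come from 2 libraries, and the differences between ratios were not tested.

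Monocyte-derived macrophage genes were higher in 11 of 18 and lower in 3, with a median log2 ratio of 0.82, and 0.50, under the 1.5-fold call, at equal depth. Plac8, a gene of inflammatory monocytes and the highest of the list after Ly6c2, was at 56.6 CPM in TAC and 5.34 CPM in sham. S100a4 and Lyz1 ran against the list, S100a4 at 136 and 319 CPM and Lyz1, a lysozyme, at 47.9 and 116 CPM. Ccr2, the receptor that draws monocytes out of the bone marrow, was at 90.8 CPM in TAC and 54.2 CPM in sham, past the 1.5-fold call. At 1000 non-mitochondrial UMIs it was seen in 5.79% (3.85 to 8.32) of TAC and 4.11% (3.52 to 4.78) of sham high-mitochondrial macrophages, with overlapping intervals. Classical monocyte markers summed to 253 CPM in TAC and 88.7 CPM in sham high-mitochondrial macrophages, and their part in the list's values was not tested.

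The interferon-inducible, cell cycle, resident macrophage and immediate-early lists had TAC/sham medians of the same sign in all bands of high-mitochondrial macrophages. In the bands 10 to 15%, 15 to 20% and 20 to 25% the median log2 ratio of the interferon-inducible list was 2.78, 2.88 and 2.87. Cell cycle medians were 1.40, 1.70 and 1.0, resident macrophage medians −1.44, −1.52 and −0.74 and immediate-early medians −0.76, −0.83 and −1.01. Ribosomal protein genes, which had a median of −0.06 in low-mitochondrial macrophages, had −0.26, −0.50 and −0.87. The median of nuclear oxidative phosphorylation genes turned, at 0.20, 0.04 and −0.14. The last band holds 107 TAC and 298 sham cells, so fewer genes are compared in it, 7 of the cell cycle list and 25 of the resident list.

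**Figure D3:**
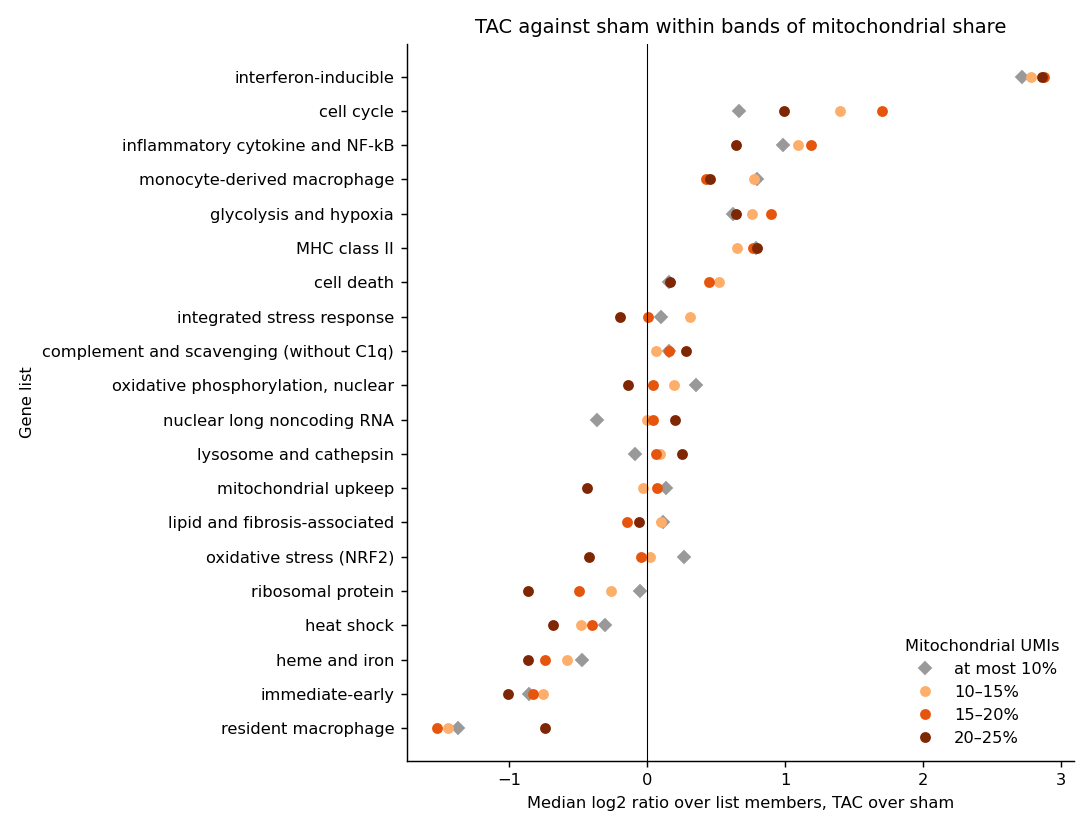
Median log2 TAC/sham ratio over the genes of each list (horizontal axis) for 20 gene lists (vertical axis), in low-mitochondrial macrophages (grey diamonds) and in 3 bands of high-mitochondrial macrophages (circles, darker with a higher share), for lists with enough genes compared. The interferon-inducible medians lie together near the right edge, and the ribosomal protein medians step from −0.06 to −0.87 as the mitochondrial share goes up.

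High-mitochondrial macrophages were then compared with low-mitochondrial ones of the same library. Of the nuclear RNAs, Malat1 and Neat1 were higher in the high-mitochondrial cells of TAC, and most monocyte-derived macrophage genes were lower in both libraries. This is the contrast that chose the cells, so its values are a description. Of 11380 genes compared in TAC, 1979 were higher (17.4%) and 1048 lower (9.21%), and of 11724 in sham 157 were higher (1.34%) and 733 lower (6.25%). The median log2 ratio of all genes was 0.08 in TAC and −0.06 in sham. The bands lie further apart in TAC, with median mitochondrial shares of 15.3% and 4.57%, than in sham, with 12.9% and 8.17%. Among 11108 genes compared in both libraries, 63 were higher in both, while 102 were higher in TAC and lower in sham. The 63 are 3.31% of the TAC list, against 0.855% of the 11108 higher in sham. They are 66.3% of the sham list, against 17.1% of the 11108 higher in TAC. Lower in both were 206 genes, and 5 were lower in TAC and higher in sham. The 206 are 21.8% of the TAC list, against 5.75% of the 11108 lower in sham. They are 32.2% of the sham list, against 8.52% of the 11108 lower in TAC. Scaling to all UMIs shifts every log2 ratio by −0.16 in TAC and −0.09 in sham, since mitochondrial UMIs then count in the total.

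Malat1, a long noncoding RNA that stays in the nucleus, was at 45494 CPM in high-mitochondrial and 21359 CPM in low-mitochondrial TAC macrophages, 2.13-fold higher, and at 29227 and 25920 CPM in sham, a ratio of 1.13-fold. From the lowest to the highest band it was at 19468, 25403, 37961, 52737 and 73884 CPM in TAC and 21929, 26031, 28303, 31614 and 35813 CPM in sham. The share of Malat1 in non-mitochondrial UMIs thus went up with the band in both libraries, with the steeper course in TAC. The total of non-mitochondrial UMIs per cell went down over the same bands, so these values do not give more Malat1 molecules per cell. Neat1, the RNA that builds paraspeckles in the nucleus, followed it in TAC, at 1399 CPM in high-mitochondrial and 543 CPM in low-mitochondrial macrophages, against 1307 and 1196 CPM in sham. Of 20 listed nuclear long noncoding RNAs 13 are in the files, and 11 were compared. Of these 5 were higher and 1 lower in TAC, against 17.4% and 9.21% of all genes. In sham 0 were higher and 1 lower, against 1.34% and 6.25%.

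The TAC cells were not alike in this. Malat1 per 10000 non-mitochondrial UMIs had a median of 462 with quartiles of 183 and 781 over TAC high-mitochondrial macrophages, and of 281 with quartiles of 215 and 370.2 over sham ones. Low-mitochondrial cells had medians of 214 and 256. For the whole nuclear list the first decile was 15.9 and the ninth decile 1182 per 10000 in TAC, against 175 and 493 in sham. TAC high-mitochondrial macrophages thus included cells in which these RNAs had a smaller share than at the first decile of sham cells. They also included cells above the ninth decile of sham cells.

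Ribosomal protein genes made up 13% of non-mitochondrial UMIs in high-mitochondrial and 15.9% in low-mitochondrial TAC macrophages, and 16.9% and 16.6% in sham. Over the 5 bands, low to high, the share was 16.1, 15.3, 14.1, 11.8 and 9.36% in TAC and 15.5, 16.6, 16.9, 17.1 and 17.3% in sham. The courses of the libraries were opposite. Of the 57 genes on the list 0 were higher and 1 lower past 1.5-fold in TAC and 0 and 0 in sham, with median log2 ratios of −0.26 and 0.02. Against sham, 10 of the 57 were lower in TAC high-mitochondrial macrophages, a share near the 16.9% of all genes, and 0 higher. Those lower included Rps14 at 1705 CPM in TAC and 3423 CPM in sham and Rps27 at 1313 and 2429 CPM. Ribosomal protein genes have many processed copies in the genome, so how their reads were counted is uncertain.

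**Figure D4:**
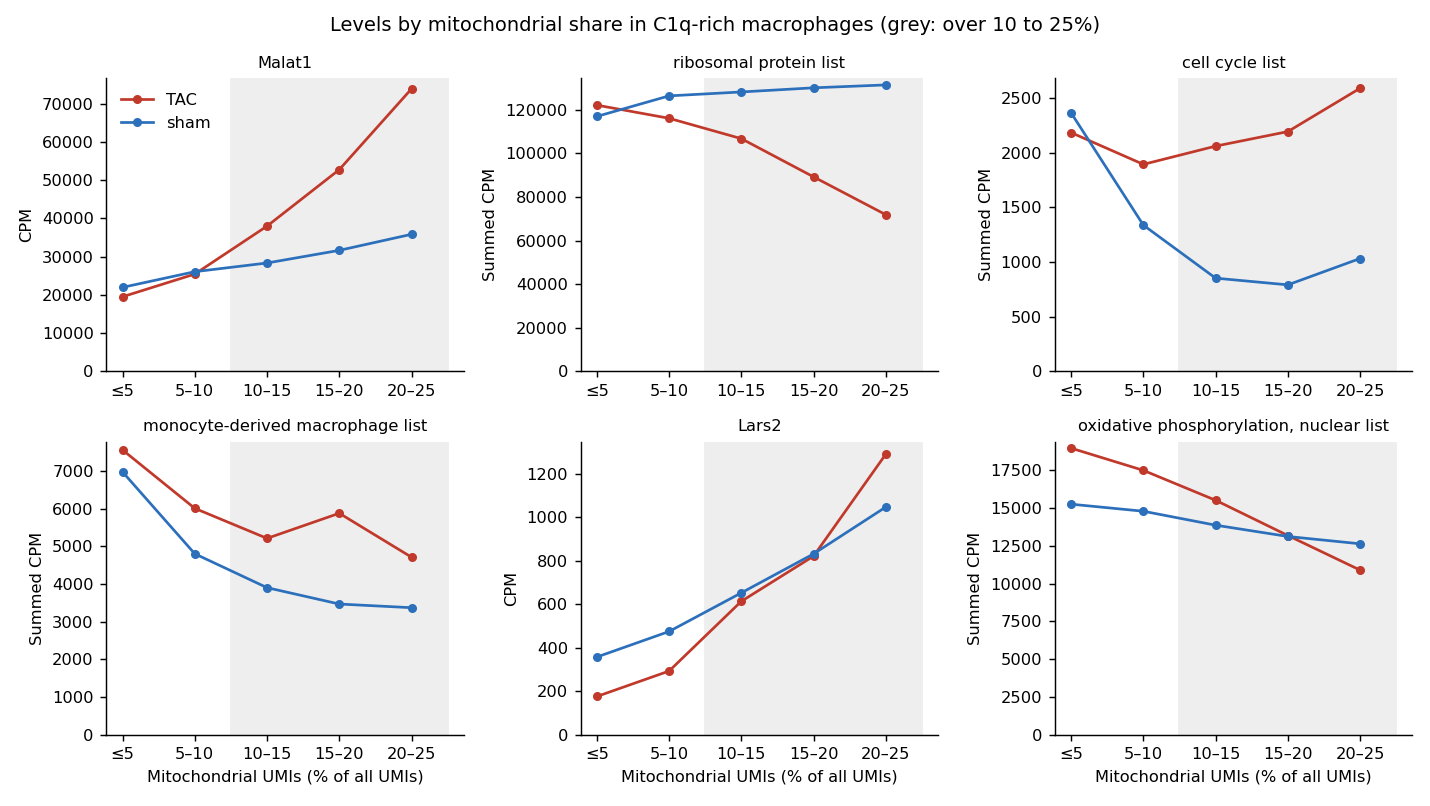
Level of 2 genes in CPM and of 4 gene lists in summed CPM (vertical axes, starting at 0) in 5 bands of mitochondrial share (horizontal axis, % of all UMIs), TAC in red and sham in blue, with high-mitochondrial bands in grey. Malat1 and Lars2 go up with the share in both libraries, while the ribosomal protein list goes down in TAC and the cell cycle list is lower in the sham grey bands than at 5% or less.

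Nuclear genes for oxidative phosphorylation had median log2 ratios of high-mitochondrial to low-mitochondrial macrophages of −0.36 in TAC and −0.14 in sham. In TAC 5 of 62 were lower past 1.5-fold, against 9.21% of all genes, and 0 higher, and in sham 0 lower and 0 higher, against 6.25% of all genes lower. Summed over the bands, low to high, they were at 18948, 17480.2, 15505, 13173 and 10889 CPM in TAC and 15244, 14779, 13857, 13111 and 12626 CPM in sham. The nuclear part of the respiratory chain thus had a smaller share of non-mitochondrial UMIs where the mitochondrial share of all UMIs was larger. Genes that keep up mitochondrial DNA, RNA and protein import had medians of −0.08 in TAC and −0.06 in sham. Lars2, the leucyl-tRNA synthetase of mitochondria, was apart from them: it was at 737 CPM in high-mitochondrial and 213 CPM in low-mitochondrial TAC macrophages, 3.45-fold (3.28 to 3.63) higher, and at 702 and 472 CPM in sham, a ratio of 1.49-fold (1.46 to 1.52), just short of the call. Over the bands it was at 176, 293, 614, 822 and 1290.4 CPM in TAC and 358, 475, 653, 832 and 1047 CPM in sham, with nearly equal levels at 10 to 15% and at 15 to 20%.

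The other genes named as highest in both libraries were of mixed function, and most had ratios near the 1.5-fold call. Mmp13 and Zmynd15 passed it in both, Vcam1, Tpm1 and Lpar6 in TAC alone and Serpinf1 in sham alone. In TAC and sham, log2 ratios were 0.59 and 0.67 for Zmynd15, 0.90 and 0.48 for Lpar6 and 0.58 and 0.69 for Serpinf1. Under other settings that of Zmynd15 fell as low as 0.32 in TAC. Vcam1, an adhesion molecule for leukocytes, was at 144 CPM in high-mitochondrial and 87.5 CPM in low-mitochondrial TAC macrophages, and at 68.2 and 46.6 CPM in sham. Mmp13, a collagenase, was at 62.8 and 40.2 CPM in TAC and 50.7 and 32.0 CPM in sham, and Il10 at 52.9 and 35.4 CPM in TAC and 11.8 and 8.24 CPM in sham. Tpm1, an actin-binding tropomyosin, had ratios of 1.89-fold in TAC and 1.38-fold in sham, and Cd83, a membrane protein of activated antigen-presenting cells, of 1.43-fold and 1.39-fold. Il10 passed in neither library, and its log2 ratio turned to −0.29 in TAC with cells of 15 to 25% and to −0.21 in sham at equal depth. Vcam1 and Mmp13 dropped under it in TAC against low-mitochondrial cells of 5 to 10%, with log2 ratios of 0.27 and 0.38.

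Monocyte-derived macrophage genes were lower in high-mitochondrial macrophages, 12 of 20 in TAC and 12 of 20 in sham with 0 higher in either library, and medians of −0.84 and −0.90. The TAC median was −0.35 at equal depth and −0.37 against low-mitochondrial cells of 5 to 10%, both under the call. Plac8 was at 56.6 CPM in high-mitochondrial and 329 CPM in low-mitochondrial TAC macrophages, and at 5.34 and 41.0 CPM in sham. Chil3, the secreted lectin Ym1, was at 14.5 and 63.5 CPM in TAC and at 0.391 and 10.5 CPM in sham, with 35 and 9 UMIs in TAC and sham high-mitochondrial cells. S100a4, a calcium-binding protein of migrating cells, was at 136 and 421 CPM in TAC and at 319 and 615 CPM in sham. Lgals3, the lectin galectin-3, was 1.74-fold lower in TAC and 1.76-fold in sham, and Anxa2, an annexin, 2.17-fold and 1.84-fold. Classical monocyte markers were lower beside them, at 253 and 674 CPM in TAC and 88.7 and 215 CPM in sham, and their part was not tested. The resident macrophage list did not go the other way. In TAC 10 of 26 resident genes were lower and 1 higher, and in sham 2 of 29 were lower and 0 higher. Of all genes 9.21% were lower in TAC and 6.25% in sham, so the sham count is near the share of all genes. Medians of the resident list were −0.34 in TAC and −0.17 in sham.

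Extracellular matrix genes among the lowest were less stable. Fn1, fibronectin, was at 4.54 and 15.8 CPM in high-mitochondrial and low-mitochondrial TAC macrophages and at 9.68 and 66.5 CPM in sham. Mmp12, the macrophage elastase, was 1.90-fold lower in TAC and 3.25-fold in sham, but in TAC its log2 ratio turned to 0.11 in cells of 15 to 25% and 0.016 against low-mitochondrial cells of 5 to 10%. Igfbp7, a secreted binding protein of stromal and endothelial cells, was 2.54-fold and 2.04-fold lower, and turned to log2 ratios of 1.07 in TAC and 0.83 in sham without barcodes that held UMIs of other cell types. Fibroblast markers were at 285 and 568 CPM in high-mitochondrial and low-mitochondrial TAC macrophages and 195 and 456 CPM in sham.

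The interferon-inducible level of a library was close in its high-mitochondrial and low-mitochondrial macrophages, with 6 of 47 genes higher and 1 lower in TAC, 1 and 1 of 45 in sham, and medians of 0.08 and 0.00. Nlrc5, the activator of MHC class I genes, was among the genes higher in TAC, at 72.7 and 31.4 CPM in high-mitochondrial and low-mitochondrial macrophages. Of all genes 17.4% were higher and 9.21% lower in TAC, and 1.34% and 6.25% in sham, the shares to set beside the counts here. Inflammatory genes were higher in 6 and lower in 4 of 29 in TAC and 0 and 2 of 28 in sham, near these shares. Cell cycle genes were the list in which the libraries parted: 31 of 42 were lower and 0 higher in sham with a median of −1.09, and 5 lower and 3 higher of 42 in TAC with a median of −0.04. Immediate-early genes were higher in 8 of 26 in TAC and in 0 in sham, with 0 and 2 lower.

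**Figure D5:**
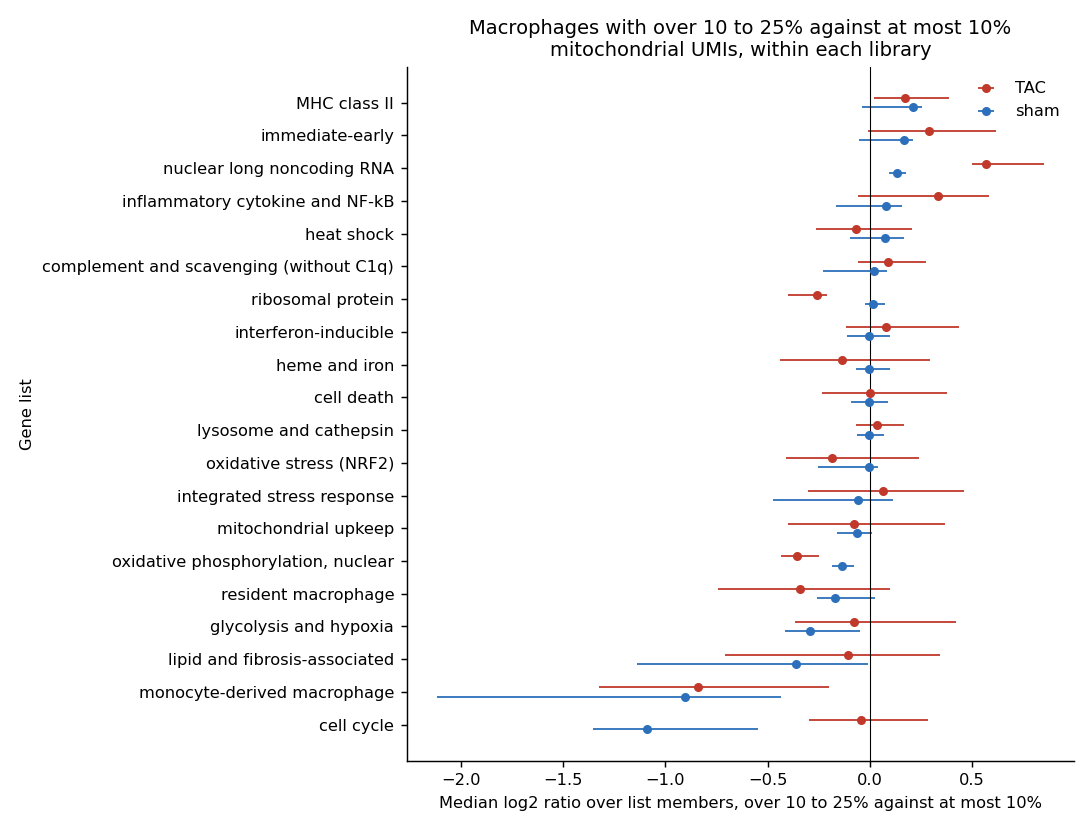
Median log2 ratio of high-mitochondrial to low-mitochondrial macrophages over the genes of each list (horizontal axis; lines span the quartiles over genes) for 20 gene lists (vertical axis), TAC in red above sham in blue. Most medians lie within 0.5 of 0, the monocyte-derived macrophage list is lower in both libraries, and the cell cycle list is lower in sham at −1.09 and near 0 in TAC.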

How the data were processed

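The matrices deposited by the authors hold raw UMI counts for 31053 genes per barcode. They were made with Cell Ranger 3.0 on mm10, per the submitters' processing notes; the calling of cells and the use of strand are not stated there. The labels describe several droplet runs, but all barcodes end in the same suffix, so runs could not be separated. Doublets were not called; leaving out the 5% of barcodes with most UMIs was tried. The members, the 20 gene lists and the 15 marker lists were chosen with earlier results of these data known.

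UMIs were summed per library and band and scaled to 1000000 non-mitochondrial UMIs (CPM), without the 13 mt- genes. Intervals are exact at 95%: Poisson for CPM, conditional binomial for ratios, Clopper-Pearson for shares; that of a difference between log2 ratios uses the delta method. Cells are not replicates, so no test was made. The scripts were checked on simulated counts.

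Genes were named by rule: the 12 highest and 12 lowest TAC/sham ratios in members at 50 CPM or more, the 10 highest and 10 lowest against low-mitochondrial cells by the smaller step of both libraries, the 6 highest and 6 lowest differences between ratios, and 2 highest and 2 lowest of each list in each comparison. The first 3 sets leave out mitochondrial, ribosomal protein, globin, antigen receptor, Y-linked and predicted genes, Xist, Tsix, genes of the selection rule and markers of other cell types. Ly6g, Nppa and the genes given for shares of cells, which were listed by hand, are outside this rule. Alternatives changed scaling, filters, limits of the rule, bands, depth, weight of cells and shared or mixed barcodes. Gene positions are from GENCODE vM21 on GRCm38, which mm10 names, and promoters from RefSeq. Computation used matplotlib 3.10.9, pandas 2.3.3, scipy 1.17.1, numpy 2.4.6 and Python 3.11.15.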

Additional observations from a re-analysis of the deposited data

Results flagged for a closer look

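Mki67 differed between high-mitochondrial and low-mitochondrial macrophages in opposite directions in the libraries, and that opposition, not a test of it, put it here. Its log2 ratio was 1.04 in TAC, at 177 against 86.5 CPM, and −1.14 in sham, at 31.9 against 70.5 CPM. Each is more than 1.5-fold. The difference between the libraries was not tested, since each condition is 1 library. The log2 difference of the TAC/sham ratios was 2.18 with a counting interval of 1.99 to 2.37.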

How the results depend on the processing

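No paired analysis was possible because each condition is 1 library, and no library could be left out. Of the settings tried, the call that also needs a counting interval was added after the data were seen. Counts past 1.5-fold that moved by over 1.5 times are given by comparison. For TAC against sham, a minimum of 200 UMIs gave 1058 genes higher and 1121 lower. High-mitochondrial against low-mitochondrial TAC macrophages, higher and lower counts were 1263 and 1816 scaled to all UMIs, 1222 and 632 at 200 UMIs, 3141 and 1805 with cells of 15 to 25%, and 1103 and 565 against cells of 5 to 10%. At equal depth 1141 were higher, and with a counting interval 563 lower. In sham they were 339 and 1143 at 20 UMIs and 39 and 299 at 200 UMIs, 384 higher with cells of 15 to 25%, 281 lower at equal depth and 481 lower without barcodes that held UMIs of other cell types. The cause was not tested, except that a UMI minimum changes how many genes are compared. Among called ratios, reversals were those of Mmp12, at 0.11 with TAC cells of 15 to 25% and 0.016 against cells of 5 to 10%, and of Igfbp7, at 1.07 in TAC and 0.83 in sham without barcodes with other cells' UMIs. Il10, which was not called, turned to −0.29 in TAC with cells of 15 to 25% and −0.21 in sham at equal depth.

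The share of macrophages in the high-mitochondrial band was 10.8% in TAC and 54.2% in sham with at least 1000 genes, 17.1% and 12.7% in TAC with C1q limits of 20 and 80, 56.8% in sham without barcodes with other cells' UMIs, and 6.58% and 33.6% of all barcodes. The other 90 recomputed counts and shares stayed within 1.5 times or within their counting interval. Of list medians 847 of 900 recomputed values stayed within an interval of the median taken from the ranked ratios of the list's genes. Of named genes 676 of 896 stayed within their counting interval. Shares of cells with a UMI stayed so in 8 of 72, since the thinning depth sets them. Depth limits the TAC side most, where 525 cells held 2421787 non-mitochondrial UMIs against 23040698 in sham.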

Other observations

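Between TAC and sham high-mitochondrial macrophages, 16.2% of all genes were higher in TAC and 16.9% lower. Of complement and scavenging genes without C1q, 10 were higher and 4 lower of 26. The lipid and fibrosis-associated list had 10 higher and 5 lower of 25. In both lists the share of genes lower was near that of all genes. Fcgr4, an activating receptor for IgG, was at 804 CPM in TAC and 51.3 CPM in sham, while Abca1, the cholesterol exporter, was at 104 and 262 CPM. Spp1, osteopontin, was at 152 and 13.1 CPM and Gpnmb at 35.9 and 3.08 CPM. Marco, a scavenger receptor for bacteria and particles, was at 34.7 CPM in high-mitochondrial and 5.40 CPM in low-mitochondrial TAC macrophages, and at 0.998 and 2.32 CPM in sham. Over the bands 10 to 15%, 15 to 20% and 20 to 25% its TAC level was 44, 25.5 and 0 CPM.

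Saa3, an acute-phase protein that macrophages secrete, went the other way, with 80 UMIs in high-mitochondrial and 15231 in low-mitochondrial TAC macrophages, a log2 ratio of CPM of −3.33. It was seen in 2.79% (1.49 to 4.72) and 2.66% (2.11 to 3.30) of these cells at 1000 non-mitochondrial UMIs, so the shares of cells were close where the summed levels were not. Lists with medians near 0 between TAC and sham were lysosome and cathepsin (0.09, 4 higher and 2 lower of 30), oxidative stress (−0.03, 7 and 6 of 21) and mitochondrial upkeep (0.07, 7 and 4 of 42). Of all genes 16.2% were higher and 16.9% lower, the shares to set beside these counts and those of the 2 lists below. Slc7a11, the cystine transporter, was the highest of the oxidative stress list at 43.8 CPM in TAC and 9.07 CPM in sham. On the upkeep list Pink1, the kinase that marks damaged mitochondria, was at 15.7 CPM in TAC and 57.4 CPM in sham high-mitochondrial macrophages, 3.66-fold (2.65 to 5.19) lower, and at 18.5 and 53.3 CPM in low-mitochondrial ones. Cell death genes were higher in 13 and lower in 2 of 29 with a median of 0.39, led by Mlkl, the effector of necroptosis, at 16.9 against 1.82 CPM. The integrated stress response list had a median of 0.32, with 5 higher and 2 lower of 19.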
